A study of Homo sapiens with 54 samples.

Results

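The 10 genes described here encode 7 aldo-keto reductases (AKR1A1, AKR1B1, AKR1B10, AKR1C1, AKR1C2, AKR1C3 and AKR7A2), the carbonyl reductases CBR1 and CBR3, and the aldehyde dehydrogenase ALDH1A1. They were taken by gene symbol from the expression table and make up 10 of its 58870 genes, and all 10 passed the filter on low counts in each of the 12 model fits. Aldo-keto and carbonyl reductases turn aldehydes and ketones into alcohols with NADPH, while ALDH1A1 oxidises aldehydes, retinal among them, to acids. Several of these genes are known targets of the transcription factor NRF2, which KEAP1 marks for degradation. A549, a human lung adenocarcinoma line with a mutated KEAP1, is known for high levels of AKR1B10, the AKR1C enzymes and ALDH1A1.

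The study followed A549 cells that stably carried an empty vector or over-expressed USP18, the protease that removes the ubiquitin-like protein ISG15 from its targets. Both lines received vehicle (DMSO) or a coded compound for 48 h: CP2 at 2 or 5 µM, or CP14 or CP18 at 1, 2.5 or 5 µM. The series text names β-lapachone as the compound under study, and no label ties it to a code. RNA was sequenced from 3 libraries in each of the 18 groups, 54 in all. The labels name poly(A) capture, while the study's methods name ribosomal RNA removal. A library held between 16673228 and 25609062 expected counts, with a median of 19701304. Each vector stands for 1 engineered population, and nothing in the labels says that the 3 replicates were separate cultures, so the p-values below measure only the spread between libraries.

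Levels are given as CPM, the expected counts of a gene relative to the total of its library, with totals scaled between libraries. Differences are log2 fold changes with their standard error (SE), and a gene is said to rise or fall where the p-value, adjusted over every gene tested in that comparison, was under 0.05. Counts of the 10 genes are read against the percentage of all tested genes that passed in the same comparison. That percentage was not matched to the levels of the 10 genes. Abundant genes can pass with smaller changes than genes of low level.

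The level of USP18 followed the vector labels. USP18 stood at 10.5, 10.7 and 11.1 CPM in the vehicle libraries of empty-vector cells and at 1312, 1301 and 1336 CPM in those of USP18 cells, a log2 difference of 6.92. Among epithelial markers KRT8 averaged 4362 CPM over the 54 libraries, KRT18 3819, KRT7 1897, CDH1 119 and EPCAM 6.73. The alveolar marker SFTPB had a count of 0 in 54 libraries, and SFTPC and NKX2-1 averaged 0.073 and 0.165 CPM. Of the leukocyte markers CD3E had a count of 0 in 54 libraries, PTPRC averaged 0.027 CPM and CD14 2.28 CPM. The fibroblast markers COL1A1, COL3A1 and PDGFRB averaged 7.90, 1.51 and 0.189 CPM, and the endothelial markers PECAM1, VWF and CDH5 averaged 0.132, 0.049 and 0.051 CPM.

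The AKR1C genes, which reduce steroids and prostaglandins, lie side by side on chromosome 10 and resemble each other closely. Their promoters are shown because all 3 genes were lower in USP18 cells and fell with CP14 at 5 µM, while at lower doses they did not always move together. The RefSeq (GRCh38.p14) promoter set used here holds 11 windows of 300 bases for 8 of the 10 genes, and none in it is for AKR1B10 or CBR3. The windows below are chr10:4963165-4963464 on the plus strand for AKR1C1, chr10:5003808-5004107 on the minus strand for AKR1C2 and chr10:5094164-5094463 on the plus strand for AKR1C3, which has 2 windows. Capitals mark the longest run of bases shared between AKR1C1 and AKR1C2, and for AKR1C3 the longest run shared with AKR1C1.
AKR1C1: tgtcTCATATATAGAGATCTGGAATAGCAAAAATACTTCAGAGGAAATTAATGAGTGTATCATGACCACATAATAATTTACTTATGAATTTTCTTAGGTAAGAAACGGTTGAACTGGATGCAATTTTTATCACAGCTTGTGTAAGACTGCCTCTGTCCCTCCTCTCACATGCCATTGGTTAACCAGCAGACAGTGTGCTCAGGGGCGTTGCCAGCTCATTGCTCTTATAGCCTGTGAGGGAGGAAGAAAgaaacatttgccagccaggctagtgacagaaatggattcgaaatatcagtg
AKR1C2: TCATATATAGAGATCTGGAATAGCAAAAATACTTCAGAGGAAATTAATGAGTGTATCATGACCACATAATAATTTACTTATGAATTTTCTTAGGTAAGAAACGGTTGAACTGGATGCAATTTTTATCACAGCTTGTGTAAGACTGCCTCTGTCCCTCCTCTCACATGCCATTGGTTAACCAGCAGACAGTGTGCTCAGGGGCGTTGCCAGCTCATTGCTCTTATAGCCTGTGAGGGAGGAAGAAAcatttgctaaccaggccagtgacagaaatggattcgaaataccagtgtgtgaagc
AKR1C3: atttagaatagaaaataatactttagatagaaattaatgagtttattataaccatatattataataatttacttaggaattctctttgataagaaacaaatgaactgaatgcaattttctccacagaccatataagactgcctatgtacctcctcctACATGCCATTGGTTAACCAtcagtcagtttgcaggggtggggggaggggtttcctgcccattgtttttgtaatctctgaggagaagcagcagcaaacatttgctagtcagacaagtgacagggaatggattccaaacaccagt
The AKR1C1 and AKR1C2 windows had 245 bases in a row in common. The AKR1C3 window shared an unbroken run of 19 bases with AKR1C1. All 11 windows were searched on both strands for TGACNNNGC, the core letters of the antioxidant response element that NRF2 binds. The letters were in 4687 of the 35116 windows of that set (13.3%), and in at least 1 window of 4384 of its 27305 genes (16.1%). Of the 8 genes here 2 had them, CBR1 with 1 match and AKR7A2 with 3. The 2 windows of AKR7A2 have 298 bases in common and hold the same 3 matches. They were absent from the windows of AKR1A1, AKR1B1, AKR1C1, AKR1C2, AKR1C3 and ALDH1A1, which says only that these letters are not in those 300 bases. The CBR1 window, chr21:36069774-36070073 on the plus strand, is shown for its match, here in capitals.
CBR1: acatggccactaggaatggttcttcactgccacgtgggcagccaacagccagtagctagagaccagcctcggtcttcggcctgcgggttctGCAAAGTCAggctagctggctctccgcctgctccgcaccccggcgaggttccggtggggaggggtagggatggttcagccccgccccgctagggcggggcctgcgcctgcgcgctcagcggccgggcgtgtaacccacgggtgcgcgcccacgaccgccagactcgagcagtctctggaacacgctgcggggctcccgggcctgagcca
A match describes the letters and not a site in use.

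Per kilobase of annotated exon, ALDH1A1 had the highest level in vehicle-treated empty-vector cells, at 3077 CPM per kb ± 53.6 (SD, n = 3). AKR1B10, which reduces aliphatic aldehydes and retinal, followed at 1544 CPM per kb. Next came AKR1C2 at 725 CPM per kb and AKR1C3, which makes testosterone and prostaglandin F, at 487 CPM per kb. AKR1B1, the aldose reductase of the polyol pathway, stood at 237 CPM per kb and AKR1C1 at 58.7 CPM per kb. CBR1, which reduces quinones and anthracyclines, reached 52.4 CPM per kb. AKR7A2, which handles succinic semialdehyde and aflatoxin aldehydes, reached 17.6 CPM per kb, AKR1A1 14.8 CPM per kb and CBR3, a close relative of CBR1, 4.76 CPM per kb. Each gene's range over the 3 libraries lay apart from that of the next gene in this order, which rests on the length of all annotated exons of a gene. By CPM alone AKR1C2 (4410) stood above AKR1B10 (2737), and AKR1A1 (46.3) above AKR7A2 (31.3). Per kilobase in vehicle-treated USP18 cells CBR1 (52.8 CPM per kb) came above AKR1C1 (17.2 CPM per kb), whose range overlapped that of AKR7A2 (16.9 CPM per kb), while by CPM alone AKR1C1 (151) came above CBR1 (129). Together the 10 genes took 1.91% of all counts in vehicle-treated empty-vector cells and 1.09% in vehicle-treated USP18 cells.

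**Figure D1:**
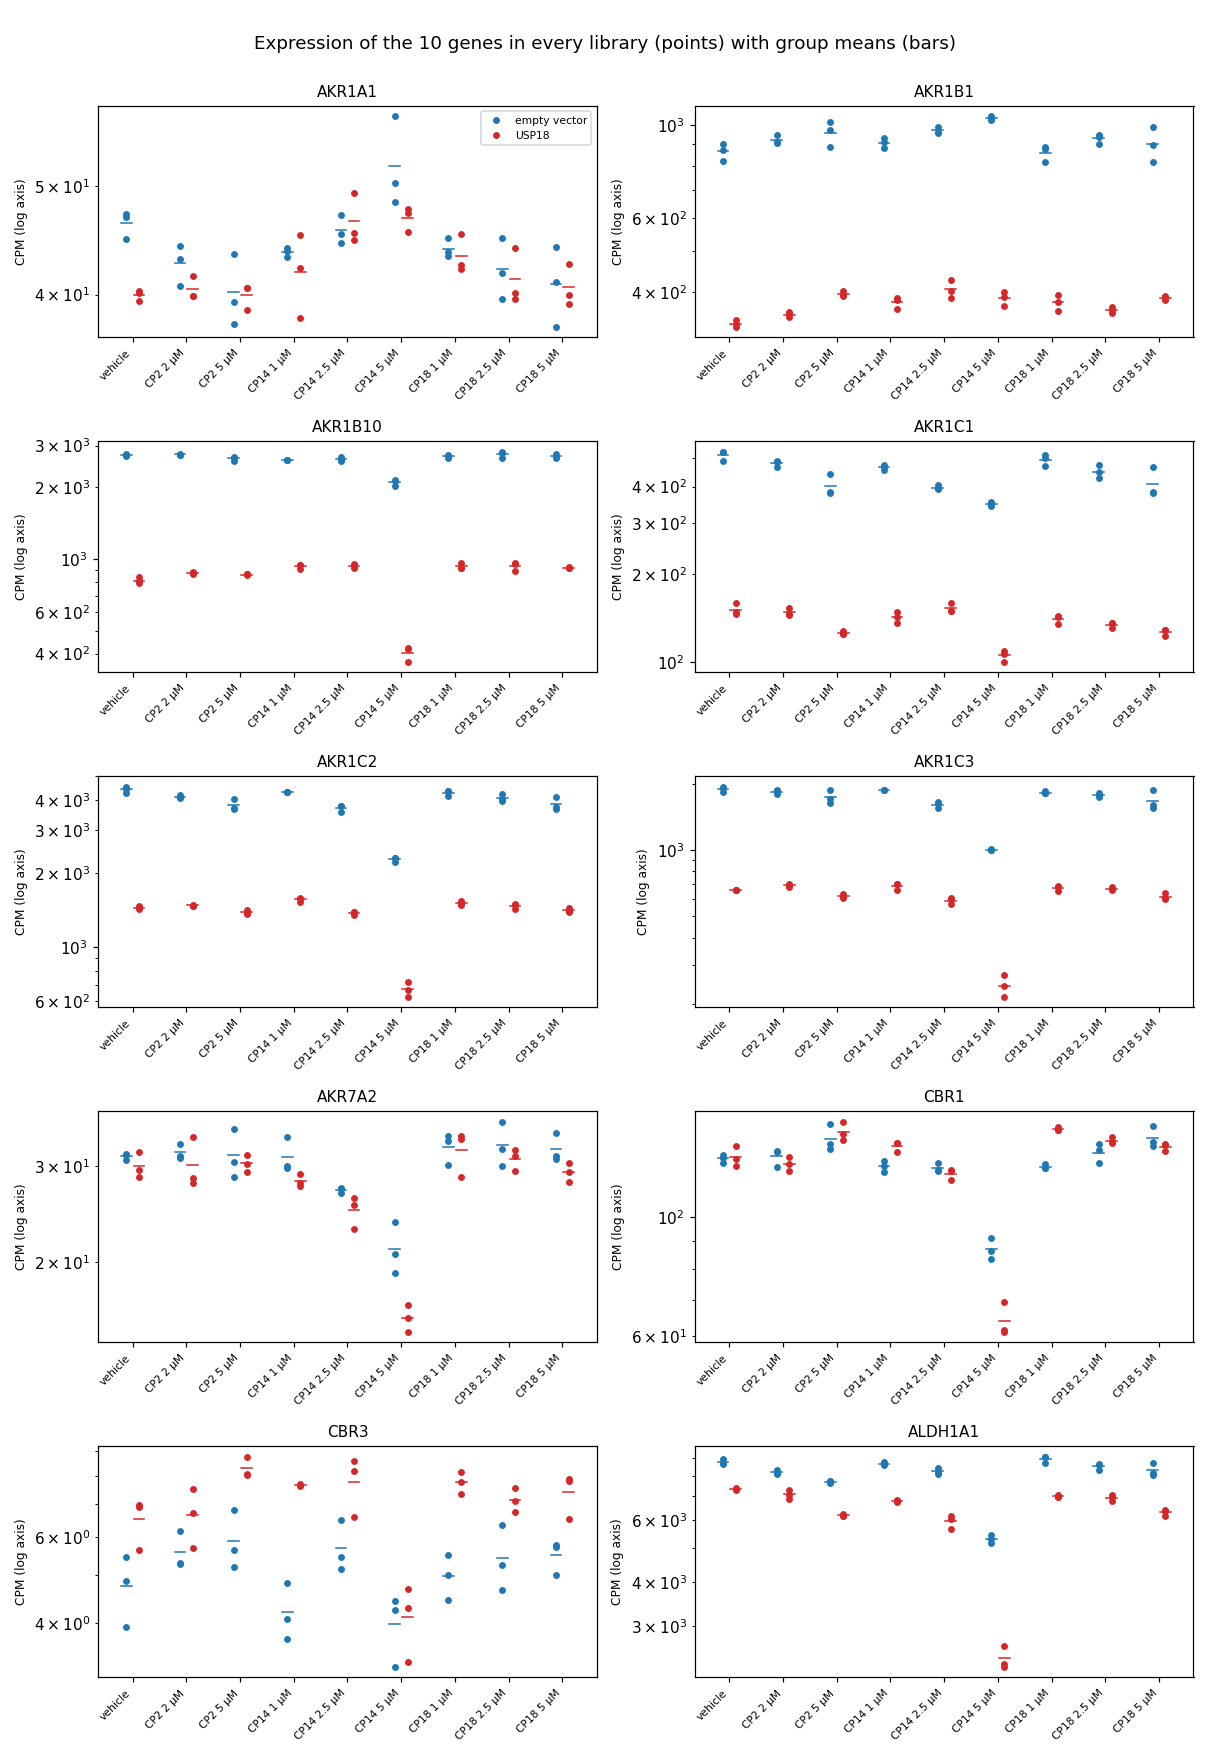
CPM of each of the 10 genes (y, log axis) in the 9 treatments (x), with a point per library, a bar at the mean of 3 libraries, empty-vector cells in blue and USP18 cells in red. AKR1C2 lay between 4273 and 4530 CPM in empty-vector cells with vehicle and between 626 and 718 CPM in USP18 cells with CP14 at 5 µM.

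The first comparison asked how the vectors differ with vehicle alone. AKR1B10, AKR1B1 and the AKR1C genes were much lower in USP18 cells. AKR1C2 read 4428, 4530 and 4273 CPM in the empty-vector libraries and 1424, 1457 and 1468 CPM in the USP18 libraries. AKR1B10 read 2734, 2754 and 2725 CPM against 792, 806 and 836 CPM. AKR1C3 read 1923, 1944 and 1844 CPM against 661, 655 and 660 CPM. For these genes every USP18 library lay far below every empty-vector library. AKR1B1 gave 872, 820 and 904 CPM against 335, 331 and 343 CPM, and AKR1C1 gave 528, 527 and 489 CPM against 146, 148 and 159 CPM. Their groups lay apart in the same way.

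In the edgeR test 8 of the 10 genes passed, where 57.6% of the 15252 genes tested did. The fall was the direction of 7 of the 10, against 28.7% of all genes. A log2 change over 1 in size was reached by 5 of the 10, against 10.1% of all genes. AKR1C1 fell by 1.78 (SE 0.04, adjusted p = 4.49e-17), AKR1B10 by 1.76 (SE 0.03, adjusted p = 8.85e-19) and AKR1C2 fell by 1.62 (SE 0.03, adjusted p = 4.62e-18). AKR1C3 fell by 1.54 (SE 0.03) and AKR1B1 fell by 1.38 (SE 0.03). ALDH1A1 fell far less, by 0.26 (SE 0.03, adjusted p = 1.34e-07), from 8672, 8913 and 8632 CPM to 7299, 7351 and 7376 CPM. AKR1A1, which reduces glucuronate and other aldehydes, fell by 0.22 (SE 0.05). CBR1, AKR7A2 and CBR3 were not among the genes that fell. CBR1 had a log2 difference of 0.00 (95% interval -0.07 to 0.07) and AKR7A2 one of -0.07 (95% interval -0.20 to 0.06), with overlapping groups for both. CBR3 rose by 0.43 (SE 0.14, adjusted p = 0.014), from 4.87, 3.92 and 5.47 CPM to 6.97, 5.65 and 6.93 CPM. Its adjusted p was 0.0566 without empty-vector vehicle replicate 2, 0.0583 without USP18 vehicle replicate 1 and 0.059 without USP18 vehicle replicate 3. In bulk libraries less RNA per cell and fewer cells that express a gene cannot be told apart.

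**Figure D2:**
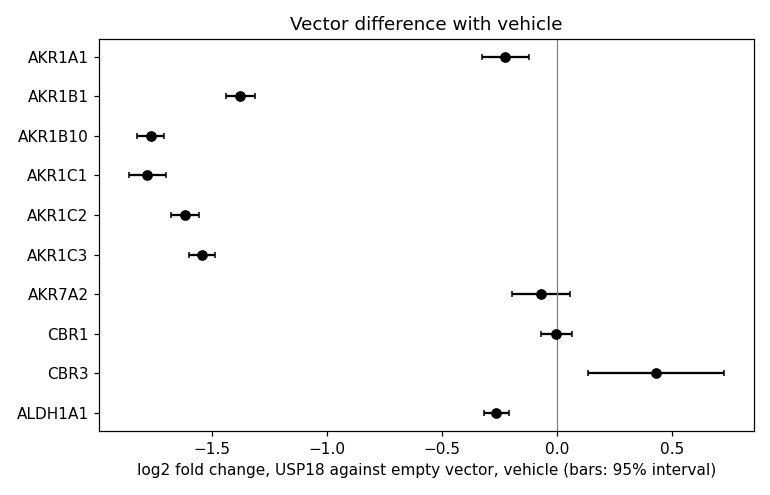
Log2 fold change of USP18 against empty-vector cells with vehicle (x) for each of the 10 genes (y), with 95% intervals from 3 libraries a group. AKR1C1 and AKR1B10 lie lowest, at -1.78 and -1.76, while CBR1 lies at 0.00 and CBR3 at 0.43.

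Reads from AKR1C1, AKR1C2 and AKR1C3 can map to more than 1 of these genes, and RSEM divides such reads between them. Their deposited counts carried decimals in 54, 54 and 53 of the 54 libraries, so the division of their reads is uncertain. Which genes share those reads was not tested. The counts of AKR1B10 carried decimals in 53 libraries too, and which genes it shares reads with was not tested. The sum of the AKR1C genes does not depend on that split. It read 6879, 7001 and 6606 CPM in vehicle-treated empty-vector cells and 2231, 2261 and 2288 CPM in vehicle-treated USP18 cells. It fell by 1.61 (SE 0.03, adjusted p = 5.18e-18). AKR1C2 made up 64.6% of the AKR1C counts in empty-vector and 64.2% in USP18 cells with vehicle, and AKR1C1 made up 7.54% and 6.68%.

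Other values moved with the vector as well. All 5 epithelial markers were lower in USP18 cells, and their summed level was 12963, 13186 and 13181 CPM in vehicle-treated empty-vector libraries and 8711, 8785 and 8950 CPM in the USP18 ones. KRT8, the most abundant of them, fell by 0.72, and EPCAM fell by 2.12. Of the fibroblast markers COL1A1 went from a mean of 12.4 to 4.71 CPM, and COL3A1 from 0.818 to 3.34 CPM. The part of these shifts in the reductase differences was not tested.

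Related enzymes were read beside these genes with vehicle, where 28.7% of all genes were lower and 29% higher in USP18 cells. Of 31 other genes tested from the aldo-keto, carbonyl, short-chain and prostaglandin reductase families, 14 were lower and 6 higher in USP18 cells. Their median log2 difference was -0.12, where that of all genes was -0.01 and that of the 10 genes was -0.82. PTGR1, a prostaglandin reductase and the most abundant of that list, fell by 1.06, while HSD17B12 rose by 0.13. Of 14 other aldehyde dehydrogenases 12 were lower and 1 higher, with a median of -0.25. ALDH2, the mitochondrial enzyme of ethanol breakdown, fell by 1.27 and ALDH3A1 fell by 1.20. Of 40 genes of the NRF2 system and its targets 26 were lower and 9 higher, with a median of -0.22. NQO1, the quinone reductase, fell by 0.37 and FTH1, the ferritin heavy chain, fell by 0.61, while TXNRD1, the thioredoxin reductase, rose by 0.82. NFE2L2, the gene of NRF2, had a log2 difference of -0.03 (adjusted p = 0.365), and KEAP1 rose by 0.10 (adjusted p = 0.0184).

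The response to CP14 at 5 µM was the strongest of the treatments for the AKR1C genes, CBR1, AKR7A2, AKR1B10 and ALDH1A1. Each treated group is set against the 3 vehicle libraries of its own vector, so comparisons within a vector share those controls. In empty-vector cells AKR1C2 read 2323, 2233 and 2308 CPM, AKR1C3 read 1009, 998 and 1000 CPM, and ALDH1A1 read 5300, 5144 and 5425 CPM. All of these libraries lay below all vehicle libraries of that vector. CBR1 went from 129, 126 and 131 CPM with vehicle to 83.5, 86.2 and 91.2 CPM. AKR7A2 went from 31.7, 31.5 and 30.8 CPM to 19.1, 20.7 and 23.7 CPM. These groups did not overlap either.

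Of the 10 genes 9 passed in empty-vector cells with CP14 at 5 µM, where 63.2% of the 15947 genes tested did, so the count itself is not far above the background. The direction was less even, with 7 lower against 32.1% of all genes. AKR1C2 fell by 0.95 (SE 0.04, adjusted p = 1.24e-14), AKR1C3 by 0.93 (SE 0.05), ALDH1A1 by 0.73 (SE 0.04) and AKR7A2 by 0.57 (SE 0.07). AKR1C1 and CBR1 each fell by 0.56, with SE of 0.04 and 0.05, and AKR1B10 fell by 0.38 (SE 0.04). With AKR1C2 at -0.95 as the largest change, no member went past a log2 change of 1, which 13.8% of all genes did. AKR1B1 rose by 0.26 (SE 0.04, adjusted p = 2.36e-06), from 872, 820 and 904 CPM to 1029, 1048 and 1034 CPM. AKR1A1 rose by 0.17 (SE 0.06, adjusted p = 0.0126), but its adjusted p was 0.0545 without empty-vector vehicle replicate 1 and 0.141 without empty-vector CP14 5 µM replicate 2, where the log2 change was 0.09. CBR3 had a log2 change of -0.27 (95% interval -0.62 to 0.08), and its groups overlapped.

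USP18 cells started from lower levels of AKR1B10, the AKR1C genes and ALDH1A1, and CP14 at 5 µM took these lower still. AKR1C2 read 718, 626 and 668 CPM with CP14 at 5 µM, AKR1C3 270, 215 and 241 CPM, AKR1B10 418, 370 and 422 CPM, and ALDH1A1 2642, 2299 and 2347 CPM. CBR1 dropped to 61.4, 61.0 and 69.2 CPM from 128, 124 and 135 CPM. For each of these genes the treated libraries were the lowest of all 54. All 10 genes passed, against 68.6% of all genes, and 8 of them were lower, against 34.3%. A log2 change over 1 in size was found for 5 of the 10, against 18% of all genes. That count was 3 without USP18 vehicle replicate 3 and 3 without USP18 CP14 5 µM replicate 2. CBR1 and AKR1B10 then fell by less than 1. It was also 3 with at least 10 counts asked of every library. The count was 4 with RLE scaling, with DESeq2, in a fit of all 54 libraries and with only the 2 compared groups. It was 4 as well without USP18 vehicle replicate 2 or USP18 CP14 5 µM replicate 1. Without USP18 vehicle replicate 1 it was 4, with 1 more gene at 1 as rounded. ALDH1A1 fell by 1.59 (SE 0.04, adjusted p = 2.99e-18), AKR1C3 by 1.44 (SE 0.05), AKR1C2 by 1.10 (SE 0.04), CBR1 by 1.01 (SE 0.05) and AKR1B10 by 1.00 (SE 0.04). AKR7A2 fell by 0.92 (SE 0.08), to a mean of 15.8 CPM ± 0.878 (SD, n = 3). CBR3 fell by 0.66 (SE 0.16, adjusted p = 0.00111), and AKR1C1 fell by 0.51 (SE 0.05). AKR1A1 rose by 0.24 (SE 0.06) and AKR1B1 by 0.21 (SE 0.04). The 10 genes held 0.457% of all counts in this group and 1.25% in empty-vector cells with the same treatment.

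The difference between the vectors in the response to CP14 at 5 µM was tested directly. It passed for 6 of the 10 genes, all with a larger fall in USP18 cells, where 27.7% of all genes passed. ALDH1A1 differed most, by -0.86 (SE 0.06, adjusted p = 1.05e-09), followed by AKR1B10 at -0.62 (SE 0.06), AKR1C3 at -0.51 (SE 0.07) and CBR1 at -0.44 (SE 0.07). AKR7A2 differed by -0.35 (SE 0.11, adjusted p = 0.016). Without USP18 vehicle replicate 1 its adjusted p was 0.0544, without empty-vector CP14 5 µM replicate 3 it was 0.0627, and without USP18 CP14 5 µM replicate 3 it was 0.0521. AKR1C2 differed by -0.16 (SE 0.06, adjusted p = 0.0473). That call was lost without any 1 of 9 libraries, which were the vehicle replicates 1 and 3 and CP14 5 µM replicates 1 and 3 of empty-vector cells, and vehicle replicates 1, 2 and 3 and CP14 5 µM replicates 2 and 3 of USP18 cells. Its adjusted p then ran from 0.0619 to 0.177, and the difference was -0.10 without USP18 CP14 5 µM replicate 2. It was also lost with RLE scaling and with a minimum of 10 counts in every library. AKR1C1 gave 0.05 (95% interval -0.07 to 0.18), AKR1B1 -0.05 (95% interval -0.16 to 0.06), AKR1A1 0.07 (95% interval -0.10 to 0.24) and CBR3 -0.39 (95% interval -0.88 to 0.10).

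The AKR1C sum read 3685, 3576 and 3657 CPM in empty-vector cells with CP14 at 5 µM and fell by 0.90 (SE 0.04, adjusted p = 5.84e-14). In USP18 cells it read 1097, 942 and 1015 CPM and fell by 1.14 (SE 0.04, adjusted p = 9.92e-16). The fall of the sum differed between the vectors by -0.24 (SE 0.06, adjusted p = 0.00454). With this treatment AKR1C1 took 9.59% of the AKR1C counts with the empty vector and 10.4% with USP18. AKR1C3 took 27.6% and 23.7%.

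**Figure D3:**
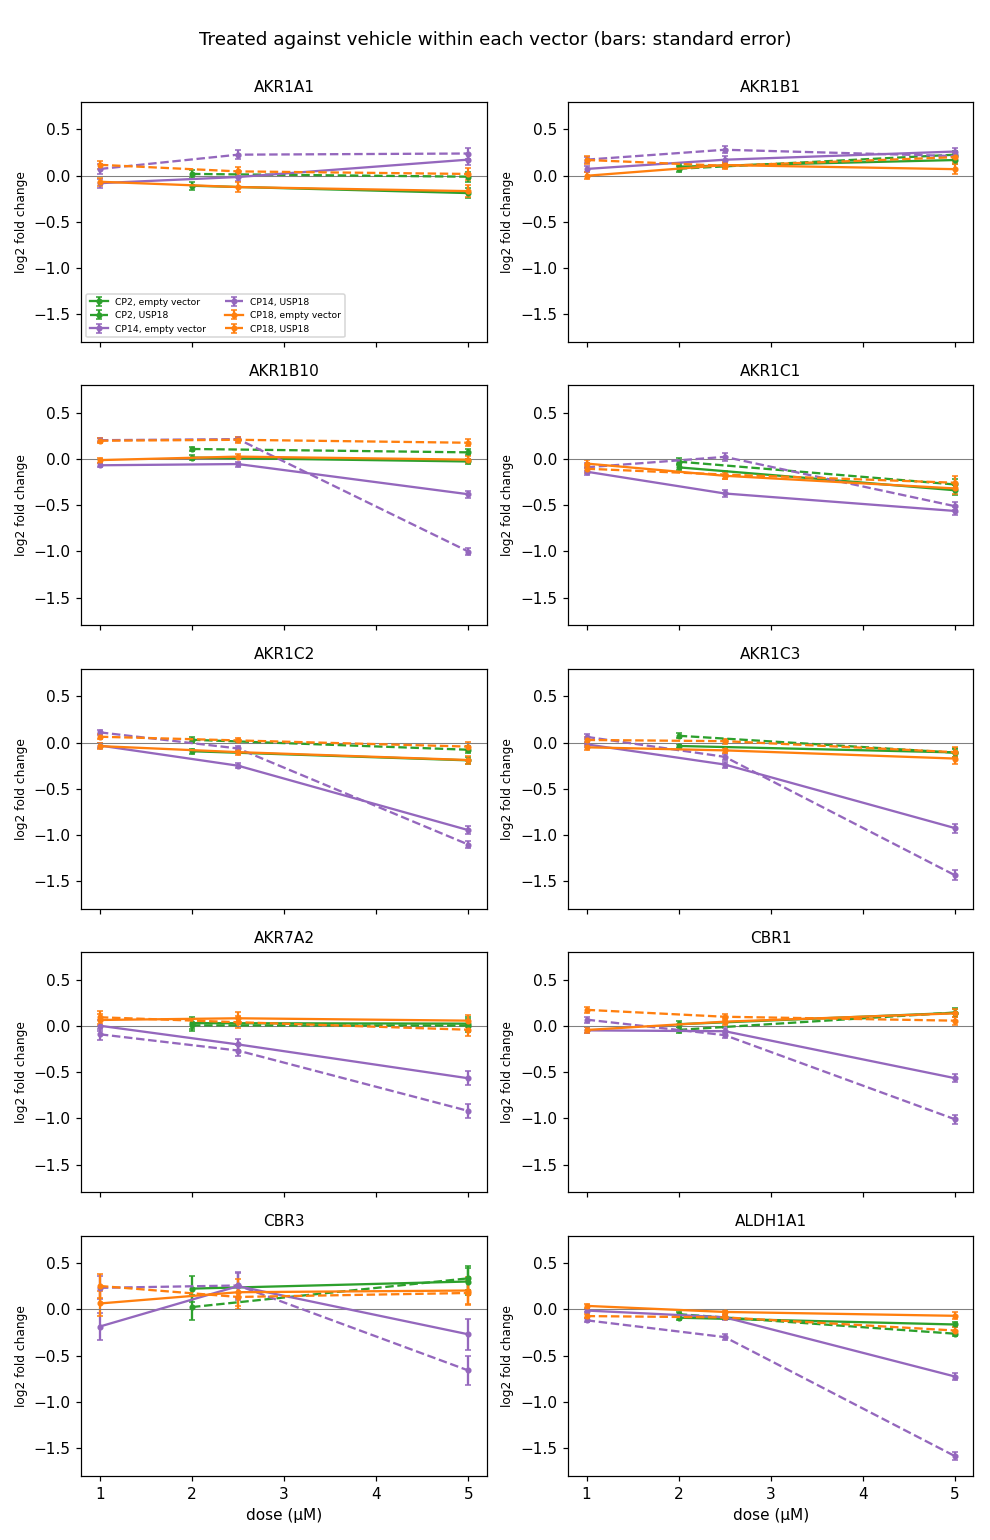
Log2 fold change against vehicle of the same vector (y) by dose in µM (x) for each of the 10 genes, with SE bars, a colour per compound, full lines for empty-vector cells and dashed lines for USP18 cells. With CP14 at 5 µM ALDH1A1 stands at -0.73 in empty-vector cells and at -1.59 in USP18 cells.

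Epithelial markers moved with this treatment too. Their summed level was 7394, 7985 and 7823 CPM in empty-vector and 6495, 6307 and 6508 CPM in USP18 cells with CP14 at 5 µM, and 4 of the 5 markers were lower and 1 higher in each vector. KRT8 averaged 2179 CPM in empty-vector and 1326 CPM in USP18 cells with this treatment, beside 6148 and 3756 CPM with vehicle. Of the markers of low level CD14 fell in both vectors, to means of 0.745 and 0.167 CPM from 2.90 and 2.47 CPM with vehicle. COL1A1 fell in empty-vector cells, from 12.4 to 6.18 CPM, and did not pass in USP18 cells (adjusted p = 0.106). USP18 itself read 1953, 2115 and 2055 CPM in USP18 cells with CP14 at 5 µM and rose by 0.64. The part of these shifts in the falls of the reductases was not tested.

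With CP14 at 5 µM, of all genes 32.1% fell and 31% rose in empty-vector cells, and 34.3% fell and 34.4% rose in USP18 cells. In empty-vector cells 15 of the 31 other genes of the reductase families fell and 6 rose. Their median log2 change was -0.21, beside 0.01 for all genes and -0.56 for the 10 genes. In USP18 cells 16 fell and 9 rose, with a median of -0.20 beside 0.01 for all genes and -0.96 for the 10 genes. SPR, which makes tetrahydrobiopterin, fell by 0.66 and 0.70 in these vectors. Of the 14 other aldehyde dehydrogenases 12 fell and 2 rose in each vector, with medians of -0.44 and -0.60. ALDH3A1 fell by 0.76 in empty-vector and by 2.58 in USP18 cells. Among the 40 genes of the NRF2 system 18 fell and 14 rose in empty-vector cells (median -0.06), and 26 fell and 12 rose in USP18 cells (median -0.33). NQO1 fell by 0.58 and 1.15, and TKT, a pentose phosphate enzyme, by 0.97 and 1.33. FTH1 rose by 0.63 and 0.49. KEAP1 fell by 0.39 and 0.67, while NFE2L2 rose by 0.15 in empty-vector cells and had a log2 change of 0.03 (adjusted p = 0.503) in USP18 cells.

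CP14 at 2.5 µM gave smaller changes. Of the 5 epithelial markers 3 were lower and 1 higher in empty-vector cells, and 2 lower and 1 higher in USP18 cells, where KRT8 fell by 0.33. In empty-vector cells 5 of the 10 genes passed, against 15.1% of all genes. AKR1C1 went from 528, 527 and 489 CPM to 395, 391 and 404 CPM and fell by 0.37 (SE 0.04, adjusted p = 7.9e-06). AKR1C2 fell by 0.25 (SE 0.03) and AKR1C3 by 0.24 (SE 0.03), while AKR1B1 rose by 0.17 (SE 0.04). AKR7A2 fell by 0.20 (SE 0.06, adjusted p = 0.0271), a call lost in turn without vehicle replicate 1 or 2 or CP14 2.5 µM replicate 1, 2 or 3 of empty-vector cells, with adjusted p between 0.0576 and 0.089. It was also lost with DESeq2 and in a fit of all 54 libraries. In USP18 cells 7 passed, against 32.7%. ALDH1A1 fell by 0.30 (SE 0.03, adjusted p = 4.06e-07), AKR7A2 by 0.27 (SE 0.06) and AKR1C3 by 0.16 (SE 0.03). AKR1B1 rose by 0.28 (SE 0.04), AKR1A1 by 0.23 (SE 0.05) and AKR1B10 by 0.22 (SE 0.03). CBR1 fell by 0.10 (SE 0.04, adjusted p = 0.0371). Its adjusted p was 0.061 and 0.218 without USP18 vehicle replicates 1 and 3, with a log2 change of -0.06 without the latter, and 0.118 and 0.0545 without USP18 CP14 2.5 µM replicates 1 and 2, and the call was lost with DESeq2, in a fit of all 54 libraries and with only the 2 compared groups.

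The response to CP14 at 2.5 µM differed between the vectors for 5 of the 10 genes, against 8% of all genes. AKR1C1 differed by 0.40 (SE 0.06, adjusted p = 0.000515). It fell in empty-vector cells and had a log2 change of 0.02 in USP18 cells, where its groups overlapped. The AKR1C sum, free of the split of reads, differed by 0.17 (SE 0.04, adjusted p = 0.0171). AKR1C1 held 6.95% of that sum in empty-vector and 7.20% in USP18 cells with this treatment, beside 7.54% and 6.68% with vehicle. AKR1B10 differed by 0.27 (SE 0.04), AKR1C2 by 0.19 (SE 0.04) and ALDH1A1 by -0.21 (SE 0.04). AKR1A1 differed by 0.24 (SE 0.07, adjusted p = 0.0338). That call was lost without any 1 of 8 libraries, which were the vehicle replicates 2 and 3 and CP14 2.5 µM replicates 1 and 3 of empty-vector cells, and vehicle replicates 1, 2 and 3 and CP14 2.5 µM replicate 2 of USP18 cells, with adjusted p between 0.0605 and 0.115. DESeq2, no low-count filter and a fit of all 54 libraries each ended it too.

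AKR1B10 took opposite directions by dose of CP14 in USP18 cells. It read 946, 945 and 912 CPM at 1 µM, 943, 951 and 920 CPM at 2.5 µM and 418, 370 and 422 CPM at 5 µM, beside 792, 806 and 836 CPM with vehicle. The lower doses lay above vehicle and the 5 µM dose below it, with no overlap. USP18 read 1053, 1069 and 1014 CPM at 1 µM and 1190, 1200 and 1178 CPM at 2.5 µM. With vehicle USP18 read 1312, 1301 and 1336 CPM. At 1 µM 4 of the 10 genes passed in USP18 cells, against 15.3% of all genes. AKR1B10 rose by 0.20 (SE 0.02, adjusted p = 1.32e-05) and AKR1B1 by 0.17 (SE 0.03). AKR1C2 rose by 0.11 (SE 0.02, adjusted p = 0.00436), or 0.0512 as adjusted p in a fit of all 54 libraries. ALDH1A1 fell by 0.12 (SE 0.02, adjusted p = 0.000629).

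In empty-vector cells edgeR called 0 of the 10 genes with CP14 at 1 µM, against 0.861% of all genes. At an unadjusted p under 0.05 the count was 3, and DESeq2 called 2. The largest values there were those of CBR3 at -0.18 (95% interval -0.48 to 0.11) and AKR1C1 at -0.14 (95% interval -0.22 to -0.06). The response at 1 µM differed between the vectors for 3 of the 10 genes, against 5.79% of all genes. AKR1B10 differed by 0.27 (SE 0.03, adjusted p = 0.000173) and AKR1C2 by 0.14 (SE 0.03, adjusted p = 0.0189). For AKR1C2 the adjusted p was 0.0587 without USP18 vehicle replicate 1 and 0.0542 without empty-vector CP14 1 µM replicate 2, and a fit of all 54 libraries ended the call. ALDH1A1 differed by -0.11 (SE 0.03, adjusted p = 0.0323), a call lost without any 1 of 8 libraries: vehicle replicates 1 and 3 and CP14 1 µM replicates 2 and 3 of empty-vector cells, and vehicle replicates 1, 2 and 3 and CP14 1 µM replicate 2 of USP18 cells, with adjusted p from 0.0545 to 0.116. It was also lost in a fit of all 54 libraries and with a replicate block.

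With CP18 the largest change that passed was the fall of AKR1C1 by 0.32 at 5 µM in empty-vector cells. At 1 µM edgeR called 0 of the 10 genes in empty-vector cells, against 0.368% of all genes, with 0 at an unadjusted p under 0.05 and 0 by DESeq2. In USP18 cells 4 passed, against 15.7%. AKR1B10 rose from 792, 806 and 836 CPM to 913, 917 and 962 CPM, by 0.20 (SE 0.03, adjusted p = 0.000211). CBR1 rose from 128, 124 and 135 CPM to 145, 147 and 145 CPM, by 0.17 (SE 0.03, adjusted p = 0.00139). The treated libraries lay above the vehicle libraries for both genes. USP18 read 1010, 1003 and 953 CPM in these treated libraries, beside 1312, 1301 and 1336 CPM with vehicle. The summed epithelial markers read 9156, 9102 and 9858 CPM, beside 8711, 8785 and 8950 CPM with vehicle. The part of these shifts in the rises of the 2 genes was not tested. AKR1B1 rose by 0.17 (SE 0.04, adjusted p = 0.00776), and its adjusted p was 0.05 without USP18 vehicle replicate 2. ALDH1A1 fell by 0.07 (SE 0.02, adjusted p = 0.0447), a call lost in turn without vehicle replicate 1, 2 or 3 or CP18 1 µM replicate 1 or 3 of USP18 cells, with adjusted p from 0.0528 to 0.0905. No low-count filter or a fit of all 54 libraries ended it as well.

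The response to CP18 at 1 µM differed between the vectors for 3 of the 10 genes, against 7.19% of all genes. CBR1 differed by 0.22 (SE 0.05, adjusted p = 0.00912) and AKR1B10 by 0.21 (SE 0.04, adjusted p = 0.00483). ALDH1A1 differed by -0.11 (SE 0.03, adjusted p = 0.0492), a call lost without any 1 of 9 libraries: vehicle replicates 1 and 3 and CP18 1 µM replicates 1 and 2 of empty-vector cells, and vehicle replicates 1, 2 and 3 and CP18 1 µM replicates 1 and 3 of USP18 cells, with adjusted p from 0.0586 to 0.141. Either other low-count filter or a fit of all 54 libraries ended it as well. At 2.5 µM edgeR called 0 differences between the vectors, against 0.197% of all genes, with 4 at an unadjusted p under 0.05 and 1 by DESeq2. At 5 µM it called 0, against 0.268%, with 4 and 1. AKR1B10 gave 0.18 (95% interval 0.10 to 0.27) at 2.5 µM and 0.18 (95% interval 0.08 to 0.29) at 5 µM.

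At the higher doses of CP18 AKR1C1 was the gene of these 10 that fell most in empty-vector cells. The epithelial marker CDH1 fell there by 0.25 at 2.5 µM and by 0.34 at 5 µM. AKR1C1 read 449, 427 and 475 CPM at 2.5 µM and 384, 380 and 465 CPM at 5 µM, beside 528, 527 and 489 CPM with vehicle. The treated libraries lay below vehicle at both doses. At 2.5 µM 3 of the 10 genes passed in empty-vector cells, against 5.96% of all genes. AKR1C1 fell by 0.18 (SE 0.04, adjusted p = 0.00672), or 0.0567 as adjusted p without empty-vector vehicle replicate 1. AKR1B1 rose by 0.11 (SE 0.03) and AKR1C2 fell by 0.10 (SE 0.03). Both calls were lost in turn without vehicle replicate 1 or 2 or CP18 2.5 µM replicate 1 of empty-vector cells, AKR1B1 also without replicate 3 and AKR1C2 also without replicate 2 of CP18 2.5 µM, with adjusted p from 0.0764 to 0.181 for AKR1B1 and from 0.106 to 0.136 for AKR1C2. A fit of all 54 libraries ended both calls, and a fit of the 2 compared groups that of AKR1C2. The libraries of CP18 at 5 µM in empty-vector cells were among the least alike of any group. In raw counts replicate 3 had a chi-square per gene of 8.82 and 11.1 against replicates 1 and 2, which had 4.66 between them, and 11.1 was the highest of 54 replicate pairs. At 5 µM 2 passed, against 8.4%. AKR1C1 fell by 0.32 (SE 0.06, adjusted p = 0.00457), a call kept without any 1 library of the 2 groups compared. AKR1C2 fell by 0.19 (SE 0.04, adjusted p = 0.0132), and its adjusted p was 0.0627 and 0.0749 without empty-vector vehicle replicates 1 and 2. That call was lost with only the 2 compared groups in the fit.

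In USP18 cells AKR1B10 stayed above vehicle at the higher doses of CP18. It read 956, 893 and 964 CPM with 2.5 µM and 918, 927 and 915 CPM with 5 µM. USP18 read 1075, 1086 and 1041 CPM with 2.5 µM and 1133, 1121 and 1110 CPM with 5 µM. Its vehicle libraries read 1312, 1301 and 1336 CPM. At 2.5 µM 4 of the 10 genes passed, against 14.2% of all genes. AKR1B10 rose by 0.21 (SE 0.03, adjusted p = 6.17e-05). AKR1C1 fell by 0.17 (SE 0.04, adjusted p = 0.0122), or 0.0946 as adjusted p without USP18 vehicle replicate 3. The AKR1C sum had a log2 change of 0.01 (adjusted p = 0.894). AKR1C1 held 6.68% of that sum with vehicle and 5.91% here, so the sum is a weak check of this gene. ALDH1A1 fell by 0.09 (SE 0.02, adjusted p = 0.0113), with 0.0512 without USP18 vehicle replicate 3 and 0.0567 without USP18 CP18 2.5 µM replicate 2. AKR1B1 rose by 0.11 (SE 0.03, adjusted p = 0.0302), a call lost in turn without replicate 1 or 2 of USP18 vehicle or of USP18 CP18 2.5 µM, with adjusted p from 0.0824 to 0.122. The calls of ALDH1A1 and AKR1B1 were lost in a fit of all 54 libraries.

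At 5 µM of CP18 4 passed in USP18 cells, against 10.7% of all genes. ALDH1A1 fell by 0.23 (SE 0.04, adjusted p = 0.000388) and AKR1B10 rose by 0.18 (SE 0.04, adjusted p = 0.00349). AKR1C1 fell by 0.26 (SE 0.07, adjusted p = 0.0192), and its adjusted p was 0.118 without USP18 vehicle replicate 3 and 0.0998 and 0.0548 without USP18 CP18 5 µM replicates 1 and 2. The AKR1C sum did not pass here (-0.07, adjusted p = 0.362), but AKR1C1 held only 5.89% of it. AKR1B1 rose by 0.20 (SE 0.06, adjusted p = 0.0278), a call lost without any 1 of the 3 vehicle or 3 treated USP18 libraries, with adjusted p from 0.0557 to 0.094.

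CP2 at 2 µM left edgeR with 0 calls among the 10 genes in empty-vector cells, against 1.84% of all genes. At an unadjusted p under 0.05 the count was 5, and DESeq2 called 3. AKR1C2 came nearest, at -0.09 (95% interval -0.15 to -0.04, adjusted p = 0.0504). Of the epithelial markers KRT8 fell there by 0.10, KRT18 by 0.17 and CDH1 by 0.22, while KRT7 and EPCAM did not pass. In USP18 cells 1 gene passed, against 1.13%. This was AKR1B10, which rose by 0.11 (SE 0.02, adjusted p = 0.0212), from 792, 806 and 836 CPM to 875, 865 and 883 CPM. Its adjusted p was 0.17 and 0.126 without USP18 vehicle replicates 1 and 2, and 0.1 and 0.0853 without USP18 CP2 2 µM replicates 1 and 3, and a fit of all 54 libraries ended the call. The response differed between the vectors for 0 of the 10 genes by edgeR, against 0.0569% of all genes, with 3 at an unadjusted p under 0.05 and 1 by DESeq2.

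At 5 µM CP2 changed 5 of the 10 genes in empty-vector cells, against 12.1% of all genes. These treated libraries differed from each other more than most, with a chi-square per gene of 8.17, 7.19 and 8.91 in the 3 pairs. AKR1C1 went from 528, 527 and 489 CPM to 383, 381 and 441 CPM and fell by 0.34 (SE 0.05, adjusted p = 0.000339). AKR1C2 fell by 0.19 (SE 0.04, adjusted p = 0.00309) and ALDH1A1 by 0.16 (SE 0.03, adjusted p = 0.00155). With only the 2 compared groups in the fit, these gave adjusted p of 0.0546 and 0.0779. AKR1A1 fell by 0.19 (SE 0.05, adjusted p = 0.0255), with 0.0652 without empty-vector vehicle replicate 2 and 0.0779 and 0.0583 without empty-vector CP2 5 µM replicates 1 and 2. AKR1B1 rose by 0.17 (SE 0.04, adjusted p = 0.0177), with 0.0572 and 0.133 without empty-vector vehicle replicates 1 and 2 and 0.059 and 0.0732 without empty-vector CP2 5 µM replicates 2 and 3, where the log2 change was 0.11 without replicate 3. These calls of AKR1A1 and AKR1B1 were also lost with only the 2 compared groups. Epithelial markers moved as much: 3 of the 5 were lower and 1 higher, as CDH1 fell by 0.46 and KRT8 fell by 0.23, and their summed level was 11057, 11160 and 11995 CPM.

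In USP18 cells 4 genes passed with CP2 at 5 µM, against 19% of all genes. ALDH1A1 fell by 0.26 (SE 0.03, adjusted p = 6.44e-06) to 6141, 6134 and 6240 CPM, and AKR1C1 fell by 0.28 (SE 0.06) to 125, 125 and 128 CPM. The AKR1C sum did not pass (-0.10, adjusted p = 0.104), but AKR1C1 held only 5.92% of it. AKR1B1 rose by 0.23 (SE 0.05) to 394, 392 and 402 CPM. The libraries of these 3 genes lay outside the vehicle range of their vector. CBR1 rose by 0.15 (SE 0.05, adjusted p = 0.032), with 0.109 and 0.159 without USP18 vehicle replicates 1 and 2 and 0.154 and 0.0809 without USP18 CP2 5 µM replicates 1 and 2. Of the epithelial markers 3 were lower, and CDH1 fell by 0.40. For the difference between the vectors edgeR called 0 of the 10 genes, against 0.92% of all genes, with 3 at an unadjusted p under 0.05 and 0 by DESeq2. ALDH1A1 differed there by -0.10 (95% interval -0.19 to -0.01) and AKR1C1 by 0.06 (95% interval -0.10 to 0.22).

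The compounds were then compared with each other at matched dose, in 10 comparisons that use no vehicle library. At 5 µM CP14 gave lower levels of most of these enzymes than CP18 did. In empty-vector cells all 10 genes differed, against 57.4% of all genes. AKR1C2 was lower by -0.76 (SE 0.05), AKR1C3 by -0.75 (SE 0.07), CBR1 by -0.70 (SE 0.05) and ALDH1A1 by -0.66 (SE 0.04). AKR1A1 was higher with CP14, by 0.34 (SE 0.07). AKR1B1 was higher by 0.19 (adjusted p = 0.00548), or by 0.12 (adjusted p = 0.0607) without empty-vector CP18 5 µM replicate 2. CBR3 was lower by -0.47 (adjusted p = 0.0118), or 0.0874 without empty-vector CP14 5 µM replicate 1. In USP18 cells 9 differed, against 64.8%. ALDH1A1 was lower with CP14 by -1.38 (SE 0.05), AKR1C3 by -1.35 (SE 0.07) and AKR1B10 by -1.19 (SE 0.04). AKR1B1 did not pass there, with a 95% interval of the difference from -0.12 to 0.11.

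CP14 was also set against CP2 at 5 µM. In empty-vector cells 9 of the 10 genes differed, against 57.2% of all genes. AKR1C3 was lower by -0.82 (SE 0.07), AKR1C2 by -0.75 (SE 0.05) and CBR1 by -0.71 (SE 0.05). AKR1C1 was lower by -0.22 (adjusted p = 0.00566), or by -0.14 (adjusted p = 0.0658) without empty-vector CP2 5 µM replicate 3. AKR1B1 did not pass, with a difference of 0.09 (95% interval -0.02 to 0.21). In USP18 cells 9 differed, against 65.6%. AKR1C3 and ALDH1A1 were each lower by -1.34, with SE of 0.07 and 0.05, CBR1 by -1.17 (SE 0.06) and CBR3 by -1.01 (SE 0.14). AKR1B1 did not pass, at -0.03 (95% interval -0.15 to 0.09).

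CP18 and CP2 at 5 µM were not told apart for any of the 10 genes by edgeR, with 0 calls in empty-vector cells, against 0.031% of all genes, and 0 in USP18 cells, against 0.0186%. In each vector 1 gene reached an unadjusted p under 0.05, and DESeq2 called 0. For AKR1C2 the interval of the difference ran from -0.10 to 0.11 in empty-vector and from -0.07 to 0.14 in USP18 cells. For ALDH1A1 it ran from 0.00 to 0.19 and from -0.06 to 0.13. AKR1B10 in USP18 cells had the interval from 0.02 to 0.20. CBR3 had the widest, from -0.40 to 0.20 and from -0.44 to 0.12.

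At 1 µM CP14 and CP18 gave 0 calls among the 10 genes in edgeR in each vector, against 0.0191% of all genes in empty-vector and 0.0191% in USP18 cells. At an unadjusted p under 0.05 the counts were 3 and 4, and DESeq2 called 0 and 0. CBR1 had the interval from -0.07 to 0.06 in empty-vector and from -0.17 to -0.04 in USP18 cells. AKR1B10 had the interval from -0.11 to -0.01 and from -0.04 to 0.06. At 2.5 µM the compounds differed for 4 of the 10 genes in empty-vector cells, against 1.8% of all genes. AKR1C1 was lower with CP14 by -0.19, AKR1C2 by -0.15, AKR1C3 by -0.15 and AKR7A2 by -0.28. These calls were lost, with adjusted p from 0.0525 to 0.186, when libraries of empty-vector cells were left out in turn. CP14 2.5 µM replicate 1 and CP18 2.5 µM replicates 1 and 3 each ended all 4 calls. CP14 2.5 µM replicate 2 also ended those of AKR1C1 and AKR7A2, and CP14 2.5 µM replicate 3 that of AKR7A2. A fit of all 54 libraries ended the call of AKR1C3, and a replicate block that of AKR7A2.

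In USP18 cells CP14 and CP18 at 2.5 µM differed for 8 of the 10 genes, against 28.2% of all genes. ALDH1A1 was lower with CP14 by -0.21 (SE 0.03, adjusted p = 3.27e-05), AKR7A2 by -0.30 (SE 0.07), CBR1 by -0.20 (SE 0.03) and AKR1C3 by -0.17 (SE 0.03). AKR1C1 was higher with CP14 by 0.19 (SE 0.04), while the AKR1C sum was lower by -0.09 (adjusted p = 0.0255). AKR1B1 was higher by 0.18 (SE 0.03). AKR1A1 was higher by 0.18 (adjusted p = 0.0224), with 0.123 without USP18 CP14 2.5 µM replicate 2 and 0.0812 and 0.0886 without USP18 CP18 2.5 µM replicates 2 and 3. AKR1C2 was lower by -0.08 (adjusted p = 0.0407), with 0.112 and 0.0772 without USP18 CP14 2.5 µM replicates 1 and 2 and 0.119 and 0.105 without USP18 CP18 2.5 µM replicates 1 and 3, and a fit of all 54 libraries ended that call.

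**Figure D4:**
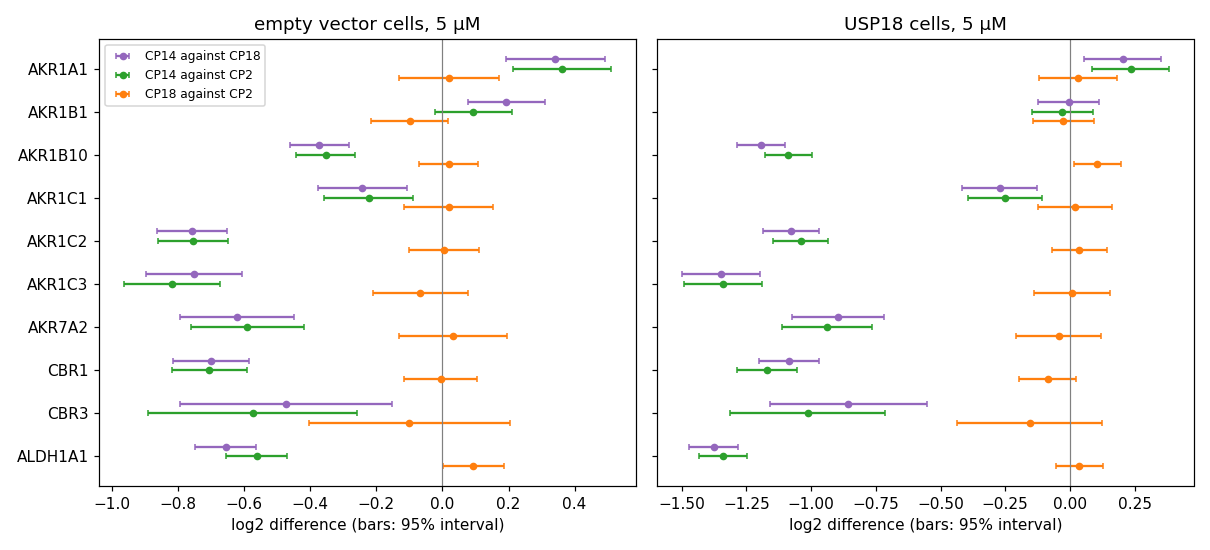
Log2 difference between compounds at 5 µM (x) for each of the 10 genes (y), with 95% intervals, in empty-vector cells on the left and USP18 cells on the right, where CP14 against CP18 is purple, CP14 against CP2 green and CP18 against CP2 orange. AKR1C2 in empty-vector cells lies at -0.76, -0.75 and 0.00 in these comparisons.

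Likeness was measured over the 18 group means of log2 CPM, against the mean of the standardised AKR1C1, AKR1C2 and AKR1C3 profiles. Of 9968 genes with a mean of at least 10 CPM, EPHX1, the microsomal epoxide hydrolase, was the most alike outside the 10 genes, with a Pearson correlation of 0.997. TCF25 followed at 0.996, COQ9, which serves coenzyme Q synthesis, at 0.995, and GPRIN2 and TNS1 at 0.994 each. Among the other members, which are not part of that mean, AKR1B10 had 0.99, AKR1B1 0.914, ALDH1A1 0.747, AKR7A2 0.529, CBR1 0.316 and AKR1A1 0.0912, while CBR3 lay under that minimum. The groups share the vector difference, so these values describe likeness and carry no test. EPHX1 fell by 1.29 between the vectors with vehicle and by 0.76 and 0.83 with CP14 at 5 µM in empty-vector and USP18 cells.

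**Figure D5:**
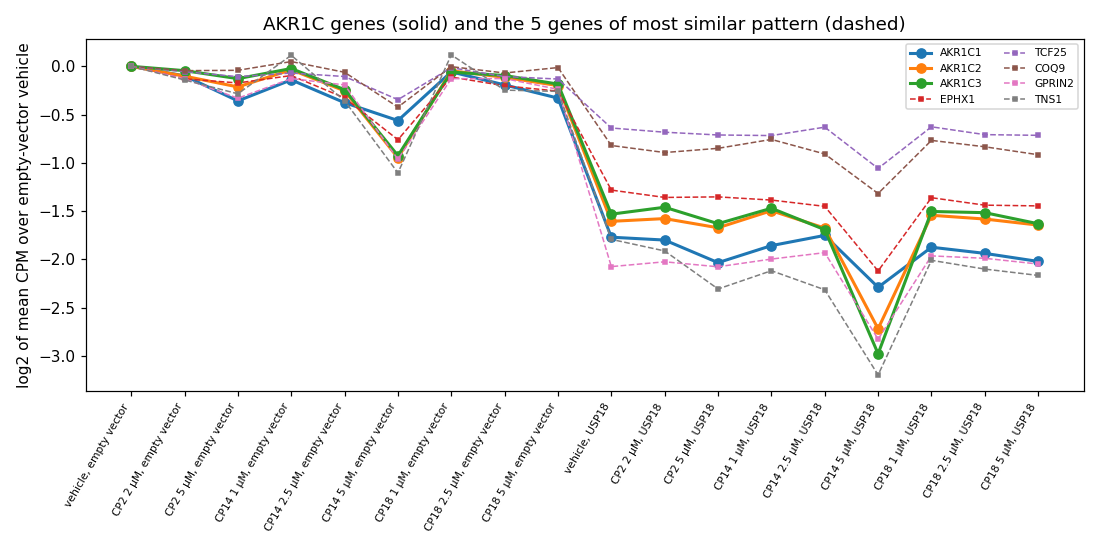
Log2 ratio of each group's mean CPM to that of empty-vector cells with vehicle (y) in the 18 groups (x), for AKR1C1, AKR1C2 and AKR1C3 with full lines and the 5 genes of most similar pattern with dashed lines. EPHX1 has a Pearson correlation of 0.997 with the mean AKR1C pattern over these groups.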

How the data were processed

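Stranded libraries of 54 A549 samples were sequenced. Per the labels the authors trimmed reads with cutadapt 1.18 and aligned them with STAR 2.7.0f to hg38, and the deposited table holds RSEM 1.3.1 expected counts. The study's methods name ribosomal RNA removal where the labels name poly(A) capture. Expected counts were rounded and fitted with edgeR 4.0.16 (quasi-likelihood, TMM scaling, low counts removed by filterByExpr at 10 counts, 15 in total) in R 4.3.3, and p-values were adjusted by Benjamini-Hochberg over all genes tested. There were 35 comparisons in 12 fits: the vehicle groups, each treatment with both vehicle groups, and all treated groups of a dose. Alternatives were RLE scaling, other count filters, DESeq2 1.42.0, a replicate block, other sets of libraries in a fit, summed AKR1C counts and each library left out in turn. Exon lengths came from GENCODE (GRCh38). The members and lists were chosen with earlier results of these data known. The 5 genes of like pattern had the highest Pearson correlation with the mean of the AKR1C genes.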

Additional observations from a re-analysis of the deposited data

Results flagged for a closer look

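Differences in response between USP18 and empty-vector cells, tested by an interaction term, passed for 17 pairs of gene and treatment. With CP14 at 1 µM AKR1B10 differed by 0.27, AKR1C2 by 0.14 and ALDH1A1 by -0.11. With CP14 at 2.5 µM AKR1A1 differed by 0.24, AKR1B10 by 0.27, AKR1C1 by 0.40, AKR1C2 by 0.19 and ALDH1A1 by -0.21. With CP14 at 5 µM AKR1B10 differed by -0.62, AKR1C2 by -0.16, AKR1C3 by -0.51, AKR7A2 by -0.35, CBR1 by -0.44 and ALDH1A1 by -0.86. With CP18 at 1 µM AKR1B10 differed by 0.21, CBR1 by 0.22 and ALDH1A1 by -0.11. AKR1B10 has a positive sign at 1 and 2.5 µM and a negative sign at 5 µM of CP14. Without USP18 vehicle replicate 1 the count was 11 in place of 17. With at least 1 library left out, the calls of AKR1C2 and ALDH1A1 with CP14 at 1 µM, AKR1A1 at 2.5 µM, AKR1C2 and AKR7A2 at 5 µM, and ALDH1A1 with CP18 at 1 µM were lost, and the report names those libraries beside each call.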

How the results depend on the processing

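Of the 136 pairs of gene and comparison that passed, 99 passed under every alternative and without each library of the compared groups in turn. Of the 136, 22 were lost in at least 1 alternative, 34 without at least 1 such library, and 0 changed sign. The CP2 count of 10 became 16 with no low-count filter and 16 with DESeq2, and the cause was not tested. With each library left out in turn the counts ran from 7 to 8 for the vector, 8 to 14 for CP2, 33 to 37 for CP14, 13 to 20 for CP18, 45 to 49 for the compound comparisons and 11 to 19 for the differences between vectors, where 11 came without USP18 vehicle replicate 1. Same-numbered replicates showed no pairing, with correlations from -0.117 to 0.11 in 27 comparisons. A replicate block gave 8, 12, 36, 18, 48 and 17 in that order. With the AKR1C genes summed to 1 feature the counts were 6, 8, 29, 13, 37 and 15, lower partly because 3 genes became 1 feature. In USP18 cells the sum did not pass with CP2 at 5 µM or CP18 at 2.5 or 5 µM, where AKR1C1 had. AKR1C1 held 5.92%, 5.91% and 5.89% of the sum in these groups, so the sum is a weak check of this gene.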
